A study of Mus musculus with 6 samples.

Results

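The 10 genes described here encode subunits of the transcription factor NF-kB, its inhibitors and genes that it induces: the subunits Nfkb1, Nfkb2, Rela and Relb, the inhibitors Nfkbia and Nfkbie, the brake Tnfaip3, the survival and adaptor genes Birc3 and Traf1, and the adhesion gene Icam1. They were taken by symbol from tables of 18720 gene rows per sample, and all 10 were listed and passed the filter on low values (a mean of at least 10 over the samples). The samples were livers of male C57BL/6 mice 1 year of age on a high-fat diet, in an R159 group of 3 libraries and a vehicle group of 3 libraries. R159 (the labels give a code name and no structure) or its vehicle was injected into the peritoneum 2 times a week over 12 weeks. Neither group was on another diet, so every value is from a high-fat-fed animal, and the labels give no dose. The series title sets R159 against a non-canonical arm of signalling from gp130, the receptor subunit shared by interleukin-6 family cytokines, and the comparison asks how liver transcripts differ between R159 and vehicle.

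NF-kB is a dimer of Rel family proteins that waits in the cytoplasm, bound by inhibitors of the IkB family. Tumour necrosis factor, interleukin-1 and Toll-like receptors activate the IKK kinases, which mark the inhibitor for destruction, and the freed RelA and p50 dimer enters the nucleus. Among its targets are its own inhibitor IkB-alpha (Nfkbia) and the ubiquitin-editing enzyme A20 (Tnfaip3), which close the loop. A slower non-canonical branch runs through the kinase NIK, the processing of p100 (Nfkb2) to p52, and RelB. In fatty liver the pathway is known from hepatocytes, Kupffer cells, endothelium and stellate cells alike. Its activation is set largely by protein modification, which transcript levels do not measure.

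Promoter windows of RefSeq genes (build GRCm38.p6, 250 bases before to 50 after the start of the gene) were held for 8 of the 10 genes, in 11 windows. They are shown because kappaB sites in their own promoters are known for several of these genes. The capitals mark matches to the kappaB consensus, a motif of 10 bases searched on both strands, with overlapping matches kept. Its letters were GGGRNWYYCC, where R is A or G, N is any base, W is A or T and Y is C or T. Tnfaip3 (chr10:19015361-19015660, minus strand) and Rela (chr19:5637291-5637590, plus strand) are genes whose transcripts fell. Nfkbia (chr12:55492598-55492897, minus strand) and Nfkb2 (chr19:46305445-46305744, plus strand; one of its 3 windows) did not pass the test. Each sequence is written 5′ to 3′ on the strand of its gene.
Tnfaip3: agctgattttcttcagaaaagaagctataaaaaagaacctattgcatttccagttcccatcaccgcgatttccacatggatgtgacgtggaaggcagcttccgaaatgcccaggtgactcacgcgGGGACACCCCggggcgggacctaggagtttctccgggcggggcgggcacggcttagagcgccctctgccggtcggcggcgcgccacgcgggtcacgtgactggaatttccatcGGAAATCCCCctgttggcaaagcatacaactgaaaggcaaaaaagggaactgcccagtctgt
Rela: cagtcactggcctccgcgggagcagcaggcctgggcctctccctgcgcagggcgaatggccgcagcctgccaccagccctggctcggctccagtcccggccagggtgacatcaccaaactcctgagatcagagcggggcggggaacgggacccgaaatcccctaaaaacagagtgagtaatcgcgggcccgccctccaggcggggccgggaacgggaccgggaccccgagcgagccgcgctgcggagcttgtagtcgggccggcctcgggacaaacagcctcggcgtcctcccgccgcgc
Nfkbia: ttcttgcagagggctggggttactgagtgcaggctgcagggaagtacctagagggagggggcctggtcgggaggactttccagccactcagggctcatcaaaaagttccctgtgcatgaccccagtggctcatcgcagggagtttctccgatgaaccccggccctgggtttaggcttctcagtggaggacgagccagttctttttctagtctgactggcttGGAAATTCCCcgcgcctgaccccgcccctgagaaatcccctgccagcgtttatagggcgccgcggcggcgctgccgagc
Nfkb2: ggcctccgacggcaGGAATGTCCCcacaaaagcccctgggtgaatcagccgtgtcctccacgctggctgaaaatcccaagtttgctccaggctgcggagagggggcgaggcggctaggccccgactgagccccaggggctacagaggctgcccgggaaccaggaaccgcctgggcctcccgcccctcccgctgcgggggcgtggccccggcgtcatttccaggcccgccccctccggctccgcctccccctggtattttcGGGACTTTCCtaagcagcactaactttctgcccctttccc
The consensus occurred in windows of 4 of these 8 genes (Tnfaip3, Nfkbia, Nfkbie and Nfkb2). By window it occurred in 6 of their 11 windows (54.5%), a pair of which, both of Nfkb2, overlap and share a match, and in 1480 of all 32851 promoter windows of the same length (4.51%). All 3 Nfkb2 windows are among the 6. The genes were chosen for their place in this pathway and sites are known for several, so these shares side by side are no test. The Tnfaip3 window shown, one of its 2, held GGGACACCCC and GGAAATCCCC, and the Nfkbia window held GGAAATTCCC. The Nfkb2 window shown held GGAATGTCCC and GGGACTTTCC. The Rela, Icam1, Birc3 and Traf1 windows held no match to these letters. This does not show that they lack a kappaB site, since a site that departs from the letters is missed. A match is a string of letters in the reference and not a measured binding site.

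Values are normalised estimated counts: fractional gene counts that the authors divided by 1 factor per library. Depth estimated from the step between low values was 51.2 to 55.7 M reads in the R159 libraries and 66.0 to 76.7 M reads in the vehicle libraries, and the 10 genes rested on 43 (Traf1) to 5602 (Rela) estimated reads per library. Tests were run with limma on log2(value + 1) across all 16594 tested genes, and calls are at a Benjamini-Hochberg adjusted p under 0.05. limma called 4479 genes (27.0%), 14.2% of tested genes lower and 12.8% higher in R159. These were 2354 lower and 2125 higher, and after upper-quartile scaling 1693 lower and 2694 higher. The count of 4479 was 2498, 1854 and 2185 without vehicle replicates 1, 2 and 3. R159 replicate 2 stood farthest from vehicle (Pearson's r across genes 0.910 to 0.918, against 0.979 to 0.986 among the vehicle libraries). Between pairs of R159 libraries r was 0.939 to 0.949. For R159 replicates 1 and 3 against vehicle it was 0.937 to 0.942, and these ranges overlapped. The R159 group was thus no tight cluster. Fold changes followed transcript length across 11027 coding genes (Spearman's rho -0.498, where genes are the points and are no replicates), so results were also computed with each library's length trend removed. By library, rho with length was 0.018, -0.597 and -0.486 in R159 replicates 1 to 3. It was 0.336, 0.466 and 0.504 in vehicle replicates 1 to 3. Nothing in the labels ties each library to its own mouse. The p-values therefore cover the differences among these libraries, which may be technical.

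Livers of R159 mice held less Tnfaip3, Rela and Relb mRNA than vehicle livers, and the other 7 genes did not pass the test. limma called 3 of the 10 genes lower (30% here against 14.2% of all tested genes) and 0 higher. In either direction this was 30% here against 27.0% of all tested genes, a nearby share. At an unadjusted p under 0.05 the counts were 4 lower and 0 higher, beside 6880 of 16594 tested genes in either direction. That background holds for the other unadjusted counts below as well. The members' median log2 fold change was -0.40, beside 0.0007 over all tested genes. The groups did not overlap in 6 members, 5 of them lower and 1 higher in R159, beside 46.2% of all tested genes (23.6% lower and 22.5% higher). Vehicle libraries held the highest value of 8 members, and the lowest value of 8 members was in an R159 library.

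**Figure D1:**
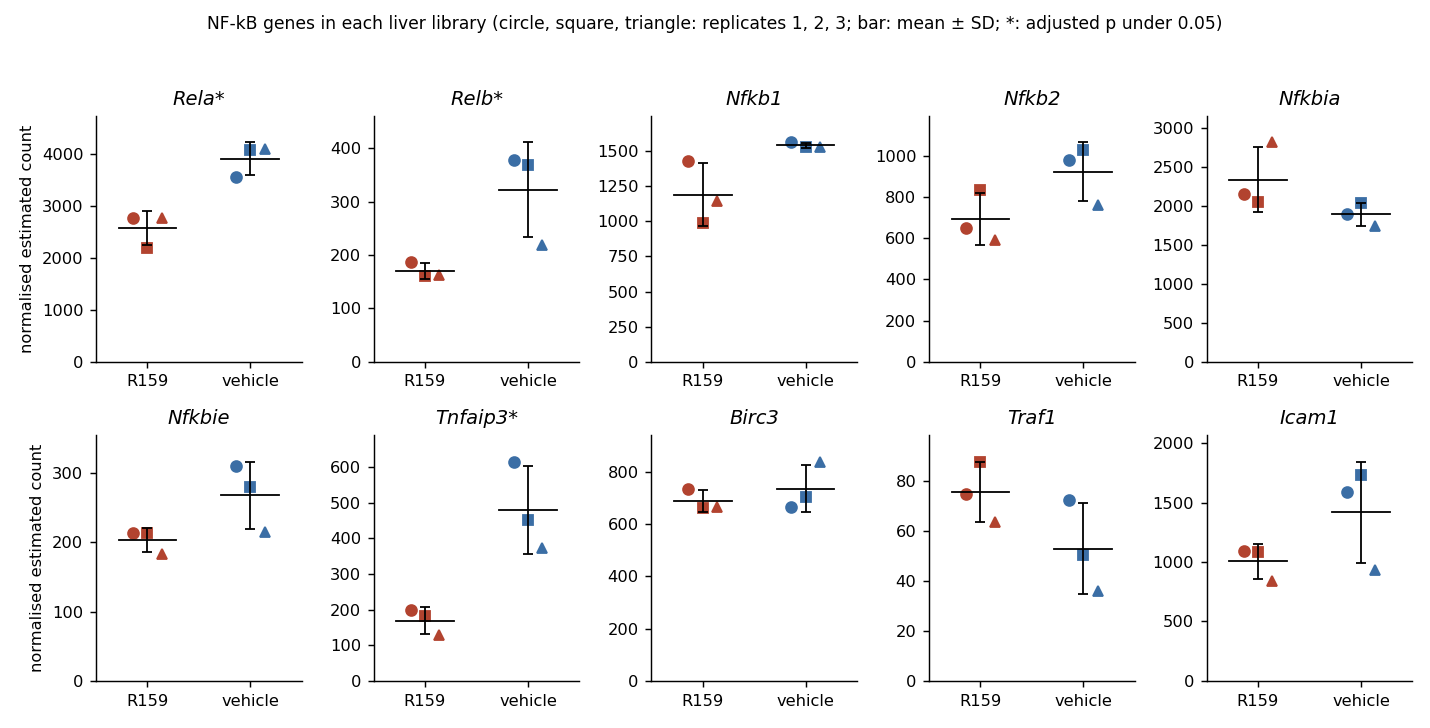
Normalised estimated counts (vertical axes, each starting at 0) of the 10 NF-kB genes in 3 R159 and 3 vehicle liver libraries, 1 point per library, with the mean and SD. The R159 points of Tnfaip3, Rela and Relb, marked with an asterisk, all sit below their vehicle points, whereas Birc3, Traf1, Nfkb2 and Icam1 overlap between groups.

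Tnfaip3, which encodes A20, the enzyme that takes activating ubiquitin chains off RIPK1 and other signalling proteins, gave the largest difference of the set. Its value was 199, 181 and 127 in R159 replicates 1 to 3, against 615, 452 and 374 in vehicle replicates 1 to 3. Every R159 library lay below every vehicle library, and the gap between the groups was wider than the range of the R159 libraries. The fitted level in R159 was 0.355 times that in vehicle (log2 fold change -1.49, SE 0.27, 95% CI -2.10 to -0.88, limma adjusted p = 0.00653). The call stood under all 17 other settings (adjusted p 0.00251 to 0.0284), including removal of the length trend (-1.14, adjusted p = 0.0244; transcript of 4422 nt).

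Rela encodes p65, the subunit that carries the main transactivation domain. It was at 2768, 2196 and 2767 in R159 replicates 1 to 3, against 3558, 4084 and 4114 in vehicle replicates 1 to 3. The groups did not overlap, and replicate 2 was the lowest of the R159 libraries. The log2 fold change was -0.61 (SE 0.16, 95% CI -0.97 to -0.25, limma adjusted p = 0.0227), and it was -0.52 with the length trend removed (adjusted p = 0.0360). Without vehicle replicate 2 or 3 Rela did not pass the threshold (limma adjusted p = 0.103 and 0.0833), nor with the empirical Bayes trend left out (0.0594).

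Relb, the partner of p52 in the non-canonical branch and itself an NF-kB target, was at 187, 161 and 162 in R159 replicates 1 to 3, against 378, 369 and 220 in vehicle replicates 1 to 3. The R159 libraries were close together, and vehicle replicate 3 lay much nearer to them than the other vehicle libraries did. The log2 fold change was -0.88 (SE 0.27, 95% CI -1.48 to -0.27, limma adjusted p = 0.0396). This was the weakest of the 3 calls: adjusted p was 0.0833 and 0.0776 without R159 replicates 2 and 3, 0.145 and 0.161 without vehicle replicates 1 and 2, and 0.0526 with the length trend removed, where the fitted change was -0.90. It was 0.0731 after upper-quartile scaling and 0.0610 without the empirical Bayes trend.

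**Figure D2:**
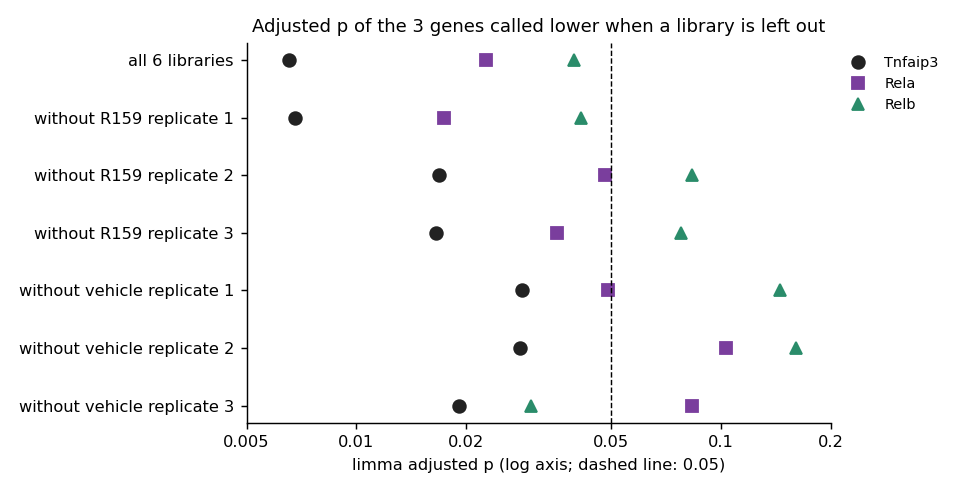
limma adjusted p (horizontal log axis, dashed line at 0.05) of Tnfaip3, Rela and Relb with all 6 libraries and with each library left out in turn (rows). Tnfaip3 stays left of the line in all 7 rows, Rela crosses it without vehicle replicate 2 or 3, and Relb crosses it in 4 rows.

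The p50 and p52 precursors were not called. Nfkb1, which encodes p105 and its product p50, was at 1429, 986 and 1148 in R159 replicates 1 to 3, against 1562, 1531 and 1533 in vehicle replicates 1 to 3. The vehicle libraries were almost equal while the R159 libraries were spread out below them, and the groups did not overlap. The log2 fold change was -0.39 (95% CI -0.78 to -0.001, limma adjusted p = 0.120). It passed the threshold without R159 replicate 1 (-0.53, adjusted p = 0.0246), and it was -0.08 (adjusted p = 0.724) with the length trend removed. Nfkb2, which encodes p100 and its product p52, was at 651, 837 and 594 in R159 replicates 1 to 3, against 982, 1027 and 761 in vehicle replicates 1 to 3. R159 replicate 2 lay above vehicle replicate 3, so the groups overlapped (log2 fold change -0.42, 95% CI -0.87 to 0.04, limma adjusted p = 0.150). With sample weights Nfkb2 was called lower (-0.57, adjusted p = 0.0448), and with the length trend removed it was -0.14 (adjusted p = 0.678).

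Summed per kilobase of transcript, the 5 Rel family genes, with Rel (which encodes c-Rel) added to the 4 subunit genes above, came to 1690, 1349 and 1557 in R159 replicates 1 to 3, against 2153, 2336 and 2220 in vehicle replicates 1 to 3. Every R159 library was lower than every vehicle library in this summed level, beside 23.6% of all tested genes that were lower without overlap. Rela, called lower above, is the largest part of the sum, from which the length trend was not removed. The make-up of the sum differed less. Rela held 61.9 ± 3.07% of it in R159 and 64.5 ± 3.69% in vehicle (SD, n = 3 each), and Nfkb1 held 18.7 ± 1.57% and 16.8 ± 0.856%. Relb held 5.04 ± 0.351% in R159 and 6.52 ± 1.82% in vehicle, and the ranges of all these shares overlapped between groups except that of Nfkb1, whose lowest R159 share was 17.8% and whose highest vehicle share was 17.6%. These shares assume 1 transcript length per gene (the longest coding transcript).

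**Figure D3:**
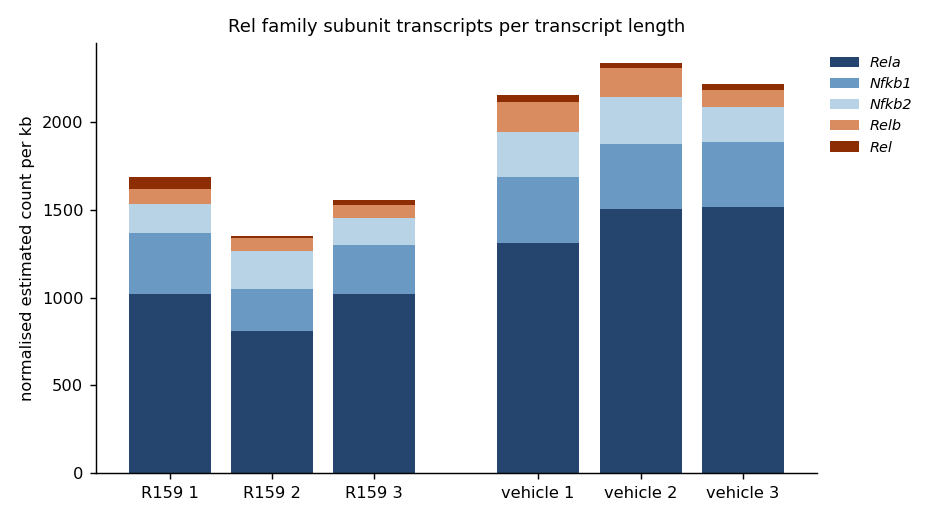
Normalised estimated count per kilobase of transcript (vertical axis) of the 5 Rel family subunit genes, stacked, in each R159 and vehicle library (horizontal axis). The stacks reach 1349 to 1690 in R159 and 2153 to 2336 in vehicle, and Rela is the largest block in all 6.

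The inhibitors did not pass the test in either direction. Nfkbia, which encodes IkB-alpha, the inhibitor that NF-kB itself induces most quickly, was at 2157, 2046 and 2815 in R159 replicates 1 to 3, against 1894, 2033 and 1744 in vehicle replicates 1 to 3. The R159 libraries were all above the vehicle ones, by a narrow margin between R159 replicate 2 and vehicle replicate 2. The log2 fold change was 0.30 (95% CI -0.09 to 0.68, limma adjusted p = 0.219), and 0.05 (adjusted p = 0.852) with the length trend removed; at 1578 nt its transcript is the shortest of the set. Nfkbie, which encodes IkB-epsilon, was at 213, 213 and 184 in R159 replicates 1 to 3, against 310, 279 and 214 in vehicle replicates 1 to 3. The R159 libraries were lower, with R159 replicate 1 and vehicle replicate 3 almost equal (log2 fold change -0.38, 95% CI -0.91 to 0.14, limma adjusted p = 0.244).

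Among the remaining targets, Birc3 encodes cIAP2, a ubiquitin ligase that protects cells from death through the TNF receptor. It was at 736, 664 and 667 in R159 replicates 1 to 3, against 664, 705 and 839 in vehicle replicates 1 to 3. The groups lay over one another (log2 fold change -0.09, 95% CI -0.48 to 0.29, limma adjusted p = 0.717), and the fitted sign turned with the length trend removed (0.04), after upper-quartile scaling (0.03) and without vehicle replicate 3 (0.007). Traf1, an adaptor of receptors of the TNF receptor family, was at 74.8, 87.7 and 63.7 in R159 replicates 1 to 3, against 72.3, 50.3 and 36.0 in vehicle replicates 1 to 3. R159 replicate 3 lay below vehicle replicate 1, so the groups overlapped (log2 fold change 0.55, 95% CI -0.30 to 1.40, limma adjusted p = 0.302). Traf1 rested on 43 to 87 estimated reads per library, the fewest of the set.

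Icam1, the endothelial and hepatocyte ligand of leukocyte integrins, was at 1090, 1087 and 837 in R159 replicates 1 to 3, against 1590, 1733 and 933 in vehicle replicates 1 to 3. Vehicle replicate 3 lay below the R159 libraries of replicates 1 and 2. The log2 fold change was -0.46 (95% CI -1.02 to 0.10, limma adjusted p = 0.194), and without vehicle replicate 3 it was -0.73 (adjusted p = 0.0508). Vehicle replicate 3 was the lowest vehicle library in 7 of the 10 members, namely all but Rela, Nfkb1 and Birc3.

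**Figure D4:**
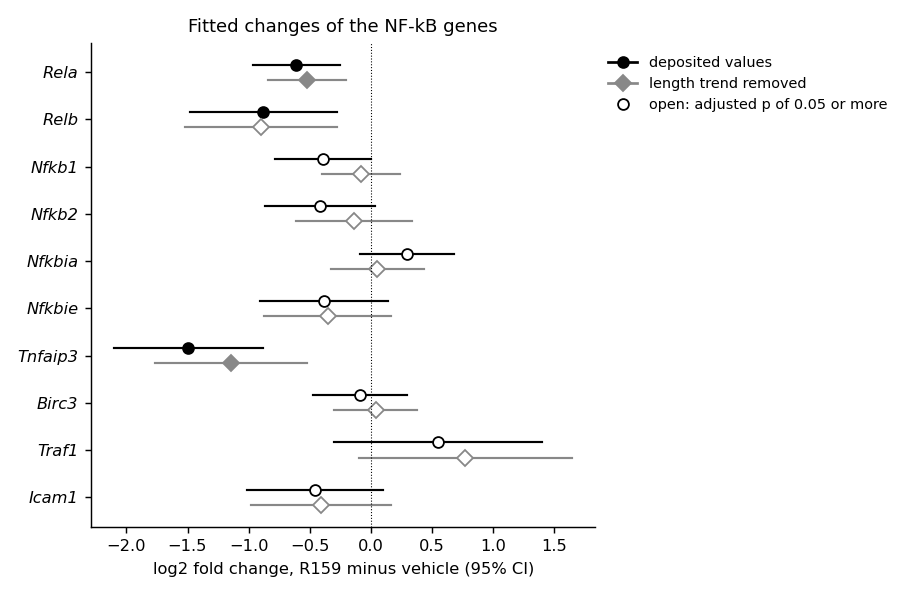
Fitted log2 fold change, R159 minus vehicle, with its 95% CI (horizontal axis) for each gene, from the deposited values (black) and with each library's length trend removed (grey); open symbols have an adjusted p of 0.05 or more. Tnfaip3 and Rela are filled in both fits and Relb in the first alone, and Nfkb1, Nfkb2 and Nfkbia move towards 0 when the length trend is removed.

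Per kilobase of transcript, the order of the levels differed between the groups at its top. These levels assume 1 transcript length per gene, and the length trend was not removed from them. With the trend removed, Nfkbia over Rela differed between R159 and vehicle by 0.57 on the log2 scale, in place of 0.91. Whether the order would still differ was not tested. In R159 Nfkbia was highest (1297 to 1784 per kb) and Rela next (808 to 1019), while in vehicle Rela was highest (1310 to 1515) and Nfkbia next (1105 to 1288). Within each group these 2 ranges did not overlap. In both groups Icam1 (330 to 430 in R159, 368 to 684 in vehicle) and Nfkb1 (240 to 347 in R159, 372 to 379 in vehicle) came after them, and their ranges overlapped. Birc3 and Nfkb2 followed, apart in R159 (228 to 253 and 154 to 218) and overlapping in vehicle (228 to 289 and 198 to 267). Relb, Nfkbie and Tnfaip3 were close in vehicle, with means of 146, 110 and 109 per kb and overlapping ranges. In R159 Tnfaip3 (28.8 to 45.1) lay below Relb (72.9 to 84.9) and Nfkbie (75.5 to 87.7), which overlapped. Traf1 was lowest in both groups (18.5 to 25.5 in R159 and 10.5 to 21.0 in vehicle).

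With the length trend removed, limma called 2 of the 10 members lower (Tnfaip3 and Rela) and 0 higher, beside 18.1% of 15854 tested genes called in either direction and 8.16% called lower, and the members' median was -0.24. The annotation at hand (GRCm38, not the mm39 of the submitters' notes) places another gene over Nfkb1 on the same strand and over Nfkb2 and Icam1 on the opposite strand. Whether counting used strand is not given in the sources used here, so reads of Nfkb2 and Icam1 may include reads of these neighbours. For Nfkb1 the overlapping gene is on the same strand, where strand would not separate the reads. Tnfaip3, Rela, Relb, Nfkbia, Nfkbie, Birc3 and Traf1 overlap no other gene there.

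Among the other genes of the pathway, the TNF receptor gene Tnfrsf1a, the adaptor gene Traf6 and the brakes Tnip1 and Tollip were called lower in R159 livers both in the deposited values and with the length trend removed. So was the target gene Bcl2l1. Called higher in both were Commd1, the receptor gene Il1rap, the adaptor gene Traf5 and the inhibitor gene Nkiras1. With each library left out in turn, Traf6, Tollip and Commd1 kept their calls throughout. Tnfrsf1a, Tnip1, Bcl2l1, Il1rap, Traf5 and Nkiras1 lost theirs in some of these fits. Of 83 other pathway genes tested, 6 were called higher and 16 lower (26.5% in all, a share near the 27.0% of all tested genes), with a median of -0.20. With the length trend removed 6 were called higher and 8 lower, and the median was -0.02. The total of 22 calls was 12 and 14 without R159 replicates 2 and 3, and 7, 5 and 9 without vehicle replicates 1, 2 and 3; it was 14 after upper-quartile scaling, then 7 higher and 7 lower. Of 11 receptors 4 were called lower and 1 higher (45.5% in all, beside 27.0% of all tested genes). With the length trend removed the balance turned to 1 lower and 2 higher, beside 18.1% of genes called in either direction. Tnfrsf1a, the main TNF receptor of hepatocytes, was at 3274, 4181 and 4867 in R159 replicates 1 to 3, against 5909, 6285 and 6605 in vehicle replicates 1 to 3. Its groups did not overlap, with a gap narrower than the range of the R159 libraries (log2 fold change -0.63, limma adjusted p = 0.0296, and -0.66 and 0.0153 with the length trend removed). Its adjusted p was 0.0531 without R159 replicate 2 and 0.0690, 0.104 and 0.0992 without vehicle replicates 1, 2 and 3. The second TNF receptor gene, Tnfrsf1b, was at 1738, 1152 and 1554 in R159 replicates 1 to 3, against 2638, 2542 and 1825 in vehicle replicates 1 to 3. Its groups did not overlap and it was called lower (log2 fold change -0.66, limma adjusted p = 0.0468), but it was at -0.38 (adjusted p = 0.210) with the length trend removed. Among the ligands, Tnf averaged 35.5 ± 26.4 in R159 and 25.5 ± 10.2 in vehicle (SD, n = 3 each; limma adjusted p = 0.784), and Il1b averaged 207 ± 68.7 and 112 ± 20.2 (adjusted p = 0.0805, and 0.0324 without R159 replicate 2). Of 7 ligands measured, limma called 1 higher and 0 lower (2 and 0 at an unadjusted p under 0.05). This was 14.3% in all, beside 27.0% of all tested genes. The gene called was Il1a (log2 fold change 0.86, limma adjusted p = 0.0434), whose adjusted p was 0.0645 with the length trend removed (0.78, with 0 ligands called then), 0.105 without R159 replicate 2 and 0.117, 0.108 and 0.124 without vehicle replicates 1, 2 and 3. Lta, Tnfsf11 and Cd40lg were not analysed here.

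Of 20 adaptors, 5 were called lower and 2 higher (35.0% in all, beside 27.0% of all tested genes). With the length trend removed 1 was called lower and 1 higher, beside 18.1% of genes called in either direction. The median was then 0.01 in place of -0.17. Traf6, the ubiquitin ligase of the interleukin-1 and Toll-like receptor route, was at 547, 404 and 501 in R159 replicates 1 to 3, against 925, 1117 and 1310 in vehicle replicates 1 to 3. It was lower in R159 in every library (log2 fold change -1.20, limma adjusted p = 0.00512), and it was called with the length trend removed too (-0.72, adjusted p = 0.0165). Traf3, which holds back the kinase NIK, was at 729, 636 and 578 in R159 replicates 1 to 3, against 1228, 1208 and 1218 in vehicle replicates 1 to 3. It was called lower (log2 fold change -0.92, adjusted p by limma 0.00599), and was at -0.40 (adjusted p = 0.0880) with the length trend removed. Of 6 kinases limma called 0 in either direction, beside 27.0% of all tested genes (1 lower at an unadjusted p under 0.05). Chuk and Ikbkb, which encode IKK-alpha and IKK-beta, differed between R159 and vehicle by -0.10 and 0.06 on the log2 scale (adjusted p by limma 0.702 and 0.862), and Ikbkg, which encodes their scaffold NEMO, gave -0.26 (0.575, and 0.0277 without R159 replicate 1). Map3k14, which encodes NIK, averaged 294 ± 108 in R159 and 496 ± 76.7 in vehicle (SD, n = 3 each; log2 fold change -0.80, adjusted p = 0.0585, and 0.0101 without R159 replicate 1).

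Brakes other than Tnfaip3 had 5 of 11 called lower and, by limma, 0 higher (6 and 0 at an unadjusted p under 0.05). Their median was -0.46, and of all tested genes 14.2% were called lower. With the length trend removed 2 were called lower, beside 8.16% of the 15854 genes tested then, and the median was -0.15. The lists were chosen with earlier results of these data known, so these shares are description only. Tnip1, which encodes the A20-binding protein ABIN1, was at 768, 684 and 803 in R159 replicates 1 to 3, against 1379, 1485 and 1121 in vehicle replicates 1 to 3. Its groups did not overlap (log2 fold change -0.81, limma adjusted p = 0.0109; 0.0649 without vehicle replicate 2 and 0.0248 with the length trend removed). Tollip, which restrains interleukin-1 receptor signalling, was at 1980, 2049 and 2020 in R159 replicates 1 to 3, against 3318, 3562 and 4097 in vehicle replicates 1 to 3. It was called lower too (log2 fold change -0.85, adjusted p by limma 0.00548, and 0.0152 with the length trend removed). Of 8 other subunits and inhibitors, 2 were called higher and, by limma, 0 lower (3 and 0 at an unadjusted p under 0.05). This was 25.0% in all, beside 27.0% of all tested genes. With the length trend removed 3 were called higher, beside 18.1% of genes called in either direction. Commd1, which promotes the removal of RelA from DNA, was one of them (log2 fold change 1.06, limma adjusted p = 0.00590). With the length trend removed Commd1 was at 1.41 (limma adjusted p = 0.00501). That value depends on the length used, 4508 nt for its longest coding transcript. Rel averaged 278 ± 221 in R159 and 247 ± 41.2 in vehicle (SD, n = 3 each; limma adjusted p = 0.822), with R159 values of 516, 79.1 and 238.

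**Figure D5:**
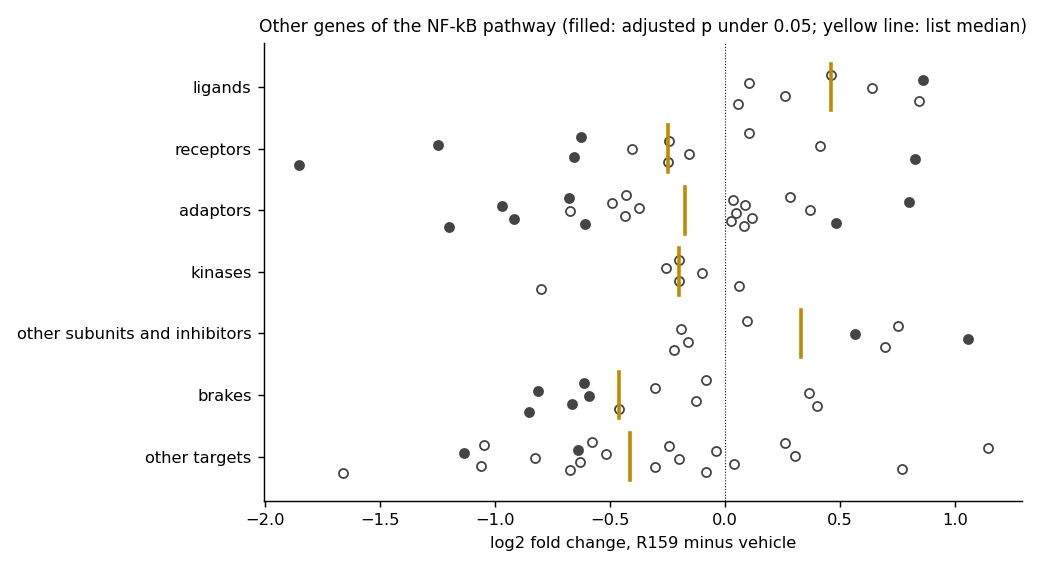
Log2 fold change, R159 minus vehicle (horizontal axis), of 83 other genes of the pathway by role (rows), 1 point per gene, filled where the adjusted p is under 0.05, with a line at each list's median. Brakes have a median of -0.46 with 5 filled points below 0, and the kinases have no filled point.

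Of 20 other targets measured above the filter, limma called 2 lower and 0 higher (3 and 0 at an unadjusted p under 0.05), with a median of -0.41; of all tested genes 14.2% were called lower. The genes called were Vcam1 and Bcl2l1. With the length trend removed 4 were called lower, beside 8.16% of the 15854 genes tested then, and the median was -0.54. The 4 were Bcl2l1 and 3 others (Ccl5, Cxcl10 and Ier3, named after their values were seen). Vcam1, an adhesion molecule of activated endothelium like Icam1, was at 376, 542 and 712 in R159 replicates 1 to 3, against 1492, 1167 and 885 in vehicle replicates 1 to 3. The groups did not overlap (log2 fold change -1.13, limma adjusted p = 0.0175; 0.0649 and 0.0572 without vehicle replicates 1 and 2, and 0.0585 with the length trend removed). Sele and Ptgs2 fell under the filter, and Il6 was not analysed here.

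Markers of some of the cells in which this pathway is known differed as well. Beside the calls below, 14.2% of all tested genes were called lower and 12.8% higher. The summed level of 7 monocyte and macrophage markers was 2768 to 3534 in R159 and 5090 to 7780 in vehicle, and 4 of the 7 were called lower (Ccr2, Cx3cr1, Csf1r and Gpnmb). The summed level of 6 stellate cell markers was 4867 to 8928 in R159 and 9912 to 20318 in vehicle, with 3 called lower (Reln, Col1a1 and Col3a1). That of 6 Kupffer cell markers was 9003 to 10920 in R159 and 10179 to 16279 in vehicle, with 2 of 6 called lower (Adgre1 and Cd5l) and a median log2 fold change over the list of 0.23, above 0. That of 6 sinusoidal endothelial markers was 6206 to 7613 in R159 and 6292 to 8427 in vehicle, with limma calling 0 (1 higher and 1 lower at an unadjusted p under 0.05). Markers of T and NK cells (174 to 408 in R159, 122 to 379 in vehicle), B cells (338 to 529 in R159, 234 to 259 in vehicle) and neutrophils (210 to 781 in R159, 88.0 to 283 in vehicle) summed to little, and limma called 0 of 12 tested in either direction (4 higher and 0 lower at an unadjusted p under 0.05). Ncr1 of NK cells was at 0 in a library and under the filter, Retnlg was under the filter too, and Ly6g was not analysed here. Cholangiocyte markers summed to 2049 to 4129 in R159 and 4134 to 12087 in vehicle, with 1 of 5 called (Krt7, higher). The median log2 fold change over the cholangiocyte list was -0.67, below 0 and so opposite to Krt7. The pan-leukocyte marker Ptprc was at 370 to 646 in R159 and 464 to 776 in vehicle. Hepatocyte markers far exceeded all of these in the 6 libraries (Alb and 4 others, summed 4096728 to 6660739 in R159 and 3260594 to 4943273 in vehicle), with Tat called higher. Of these 11 marker calls, 5 (Adgre1, Cd5l, Csf1r, Gpnmb and Col1a1) stood with every library left out in turn. With the length trend removed 6 of the 11 stood, and Ccr2, Csf1r, Reln, Col3a1 and Tat did not (limma adjusted p = 0.271, 0.0588, 0.284, 0.270 and 0.0560). The part of these cell types in the levels of Tnfaip3, Rela and Relb was not tested, and in bulk tissue fewer cells of a type and less mRNA per cell cannot be told apart.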

How the data were processed

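Poly(A) RNA of 6 mouse liver samples, 3 R159 and 3 vehicle, was sequenced from stranded libraries as paired reads of 50 bases, per the labels' protocols. The deposited values, 1 table per library, are a signal: estimated gene counts divided by 1 factor per library, as the authors' table names and the fractional values show. Build mm39 and the tools STAR 2.7.8a, cutadapt, FastQC 0.11.9, R 4.2.3 and DESeq2 (version written as 3.5) stand in the submitters' processing notes without a role. For counter and annotation, nothing was given in the sources used here. Dividing all values by a per-library factor keeps differences within a library and removes its depth.

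The step between low values gave the worth of 1 read; by that step 69.6% to 77.2% of low values came out whole (tolerance 0.05 reads), too few for a count test. R 4.3.3 and limma 3.58.1 were used on log2(value + 1) of genes whose mean was at least 10, with group as the only term and the empirical Bayes trend. Adjustment was Benjamini-Hochberg over 16594 genes, and calls needed an adjusted p under 0.05. The pseudocount makes fold changes of low genes smaller. The length trend was removed by a lowess curve (span 0.3) of each library's deviations on log2 length of the longest coding transcript, fitted over coding genes with a mean of at least 100; lengths, taken from a GRCm38 annotation, were found for 95.5% of tested genes, and the others left out. When tested on simulated data (16594 genes, R159 and vehicle, 200 of them changed), the fit called 22% of those changed by log2 1 and 70% of those changed by log2 2. In the data 27.0% of genes were called, and the Benjamini-Hochberg cutoff depends on that share. The simulated shares are therefore not the sensitivity of this comparison. Exact permutation tests used scipy 1.17.1, and figures matplotlib 3.10.9 in Python 3.11.15.

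Other settings were scaling by the upper quartile or to a total without the 20 highest genes, a pseudocount of 0.5 or 8, a filter at a mean of 50 or none at all, eBayes without trend or robust, sample weights, a replicate block, the length trend removed, and leaving out each library. The members and lists were chosen with earlier results of these data known. All 10 members were to be named, and of the other pathway genes 12 in every case and up to 4 of smallest p among those called in each list, plus marker genes that were called or at 0. The text gives values for a part of these.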

Additional observations from a re-analysis of the deposited data

How the results depend on the processing

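Among the 10 members, Tnfaip3, Nfkbia, Nfkbie, Traf1 and Icam1 kept their direction and side of the threshold under all 17 other settings, Nfkb1 and Nfkb2 under 16 each, Rela and Birc3 under 14 each, and Relb under 10. The 3 calls among members became 1 without the empirical Bayes trend, and 1 to 4 with a library left out. All calls (4479) became 2864 with the length trend removed and 1854 to 5420 with a library left out. The 22 pathway calls became 14 after upper-quartile scaling, 8 without the empirical Bayes trend, 14 with the replicate block, 14 with the length trend removed and 5 to 28 with a library left out. Scaling moved the median log2 fold change of all genes to 0.12 (upper quartile) and -0.11 (total without the 20 highest genes), beside 0.001. Before that shift is taken off, Tnfaip3 was at -1.37 and -1.60 and Rela at -0.49 and -0.72 under these scalings. Among the uncalled genes that are members or were named in every case, the signs that turned were, after upper-quartile scaling, Birc3 (0.033) and Chuk (0.023); after scaling to a total without the 20 highest genes, Ikbkb (-0.050), Nfkbib (-0.015) and Traf2 (-0.025); with sample weights, Tnf (-0.362) and Traf2 (-0.00365); and with the length trend removed, Birc3 (0.039), Chuk (0.135), Ikbkg (0.256) and Rel (0.327). With a library left out the ranges crossed 0 for Birc3 (-0.162 to 0.00705), Ikbkb (-0.180 to 0.277), Ikbkg (-0.672 to 0.025), Nfkbib (-0.037 to 0.333), Rel (-0.826 to 0.520), Tnf (-0.298 to 0.793) and Traf2 (-0.093 to 0.292). The cause was not tested. No pairing by replicate number was seen: the correlations of same-numbered deviations were -0.098, 0.031 and 0.108, and not every library correlated best with its own number. With 3 libraries per group this cannot show that the libraries were unpaired. With the replicate block 3945 genes and 3 members were called. Depth is lowest for Traf1, which rested on 43 to 87 estimated reads per library.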

Other observations

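The ratio of Nfkbia to Rela transcripts, inhibitor to subunit, was 0.779, 0.932 and 1.02 in R159 replicates 1 to 3, against 0.532, 0.498 and 0.424 in vehicle replicates 1 to 3. Every R159 library was above every vehicle library, and the log2 ratio differed by 0.91. The exact two-sided permutation test on the log2 ratio gave p = 0.1, the smallest that 3 against 3 allows, and 0.133 after Benjamini-Hochberg adjustment over the 4 ratios computed, which were chosen after the members' values were seen. With the length trend removed the difference was 0.57 and the groups stayed apart. The ratio of Nfkbia to Nfkb1 was 1.51, 2.07 and 2.45 in R159 replicates 1 to 3, against 1.21, 1.33 and 1.14 in vehicle replicates 1 to 3, apart by 0.69 on the log2 scale (exact permutation p = 0.1) and by 0.13, with overlap, once the length trend was removed. Tnfaip3 over Rela was 0.0720, 0.0825 and 0.0461 in R159 replicates 1 to 3, against 0.173, 0.111 and 0.0908 in vehicle replicates 1 to 3 (log2 difference -0.89, exact permutation p = 0.1; -0.62 with overlap once the length trend was removed). Nfkbie over Rela overlapped between the groups (0.0802 ± 0.0155 in R159 and 0.0692 ± 0.0175 in vehicle, SD, n = 3 each; exact permutation p = 0.5).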
